A study of Mus musculus with 6 samples.

Results

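The antioxidant genes controlled by the transcription factor NRF2 were examined in lung of wild-type mice and of mice with an Scnn1b transgene. The 10 genes were Nfe2l2, which encodes NRF2 itself, and 9 of its textbook targets (Hmox1, Nqo1, Gclc, Gclm, Txnrd1, Srxn1, Slc7a11, Gpx2 and Gsr). They were taken by symbol from probe sets annotated with exactly 1 gene, and all 10 were measured among 19935 genes, each by 1 probe set. The groups were 3 arrays of wild type and 3 arrays of Scnn1b-Transgenic (Scnn1b-Tg) lung, both on the C57BL/6 background. The aim given with the series was a search for candidate genes of emphysema. Scnn1b encodes a subunit of the epithelial sodium channel, and in the Scnn1b-Tg line as generally known the transgene is driven by the promoter of the club cell secretory protein, so that airway secretory cells carry it. The labels used here name no promoter, age or sex, and do not say whether samples of a group came from separate animals. The p-values therefore measure the spread between these samples, which may be technical.

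NRF2 is held in the cytoplasm by KEAP1, which hands it to a CUL3 ubiquitin ligase for destruction. Oxidants and electrophiles modify KEAP1, NRF2 then enters the nucleus, pairs with a small Maf protein and binds antioxidant response elements. Its targets build glutathione, recycle glutathione and thioredoxin, supply NADPH and break down haem. In lung the pathway is known for protection against cigarette smoke and inflammatory oxidants, and both airway epithelium and macrophages use it.

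The arrays could be compared over all genes, with Pearson's r of log2 values from 0.9909 to 0.9965 within a genotype and from 0.9898 to 0.9944 between genotypes, across genes, which are not replicates. Medians of the arrays were 47.6 to 48.5 in intensity, and their lowest values 18.3 to 18.6. Wild type replicate 2 stood apart on the first principal component and Scnn1b-Tg replicate 3 on the second, and results were also computed without both. Scnn1b itself was 10.3-fold higher in Scnn1b-Tg (log2 fold change 3.37 ± 0.16, SE), the single gene called in limma (adjusted p = 0.00241, and 0.0559 without wild type replicate 3). Defining markers of lung were bright in both genotypes, with Sftpc, a surfactant protein of alveolar type 2 cells, at a wild-type intensity of 7948 ± 614 (SD, n = 3) against 7973 ± 487 with the transgene, and Ager of alveolar type 1 cells at 2261 ± 90.5 against 2279 ± 112. The second brightest markers of these cells, Sftpa1 (0.14 ± 0.10, SE, on the log2 scale) and Cav1 (-0.16 ± 0.07), had overlapping groups.

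Of the 10 NRF2 genes 0 passed the threshold of an adjusted p under 0.05 in limma, where 0.00502% of all genes did. Before adjustment, 4 members had a p under 0.05, all of them higher. They were Hmox1, Gclc, Slc7a11 and Gsr, by 1.34, 1.27, 1.23 and 1.19-fold. Of all genes 6.01% were at that level, with 3.96% of all genes higher and 2.05% lower. All 3 Scnn1b-Tg arrays lay above all 3 wild-type arrays for these 4 and for Srxn1, or 5 of 10, against 6.26% of all genes. The median log2 fold change was 0.12 over the 10 members and 0.0052 over all genes. Wholly below wild type lay 0 members and 4.41% of all genes, and 8 of 10 had a log2 fold change above 0, as did 53.2% of all genes. Without both arrays that stood apart, 0 members were called and 5 reached an unadjusted p under 0.05, the fifth being Gpx2. The share of all genes at that level in this setting is not given here, and the 6.01% is from all 6 arrays.

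**Figure D1:**
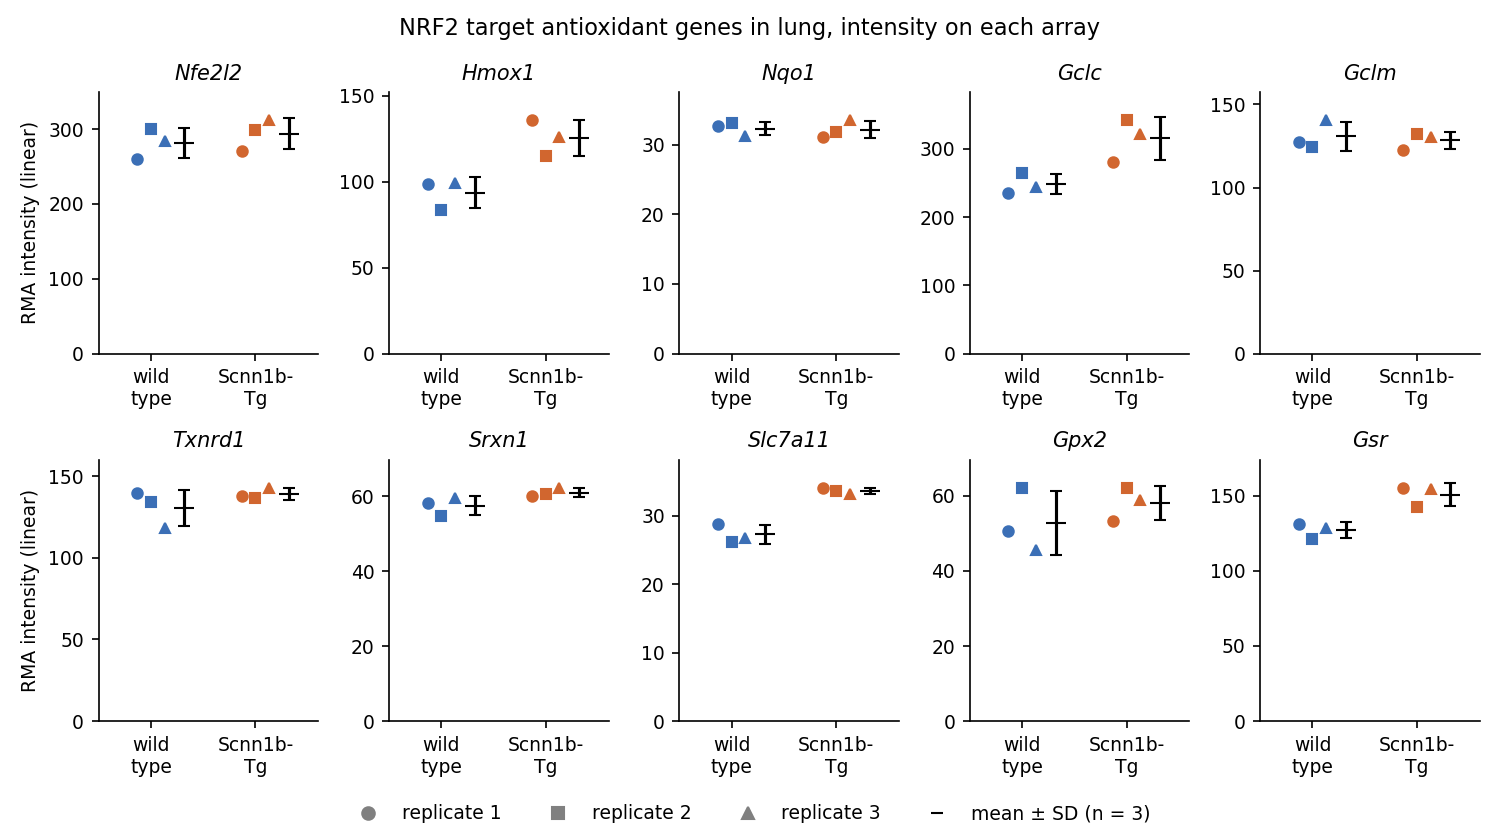
RMA intensity on a linear axis from 0 for each of the 10 genes, with 1 point per array (blue wild type, orange Scnn1b-Tg, the marker shape giving the replicate number) and the mean ± SD of 3 arrays in black. Groups were separate for Hmox1, Gclc, Srxn1, Slc7a11 and Gsr and overlapped for the other genes.

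**Figure D2:**
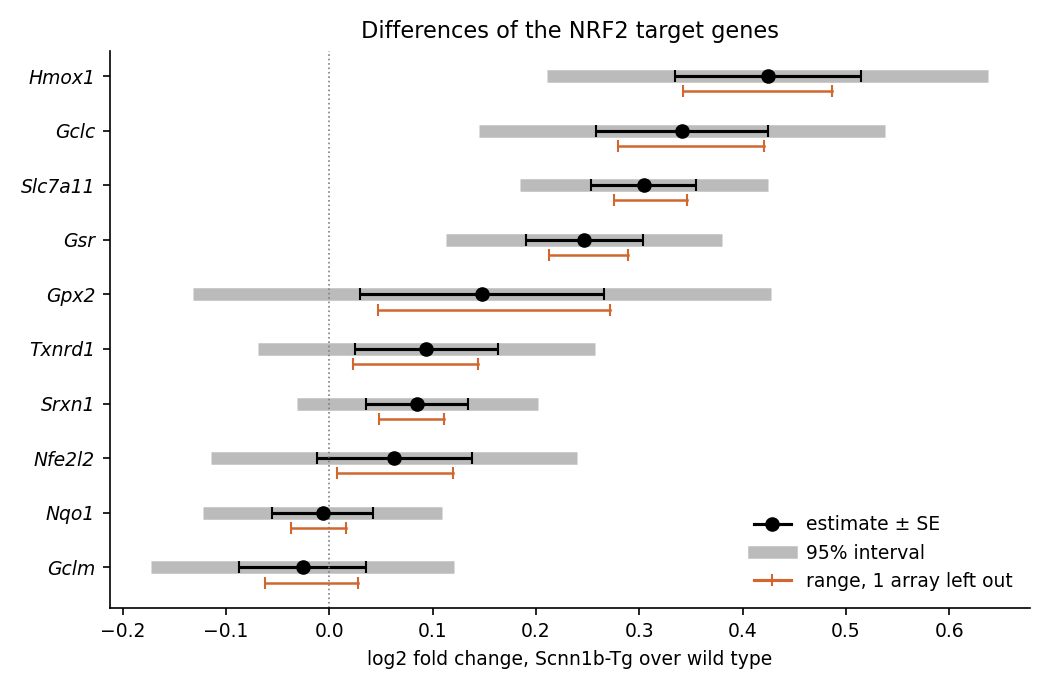
Log2 fold change of Scnn1b-Tg over wild type for each of the 10 genes, with the SE (black), the 95% interval of the limma fit (grey) and the range of the estimate when 1 array was left out (orange). Hmox1 had the highest estimate at 0.42 and Gclm the lowest at -0.03.

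The element bound by NRF2 was looked for near the starts of these genes, which share NRF2 as a regulator. RefSeq windows of GRCm38.p6, from 250 bases before to 50 after a transcription start, were listed for 7 of the 10 members in 9 windows. No window was listed for Hmox1, Gclc and Gsr. The core element TGACNNNGC, searched on both strands, was found in windows of 4 of these 7 genes, while 14.0% of all 27025 genes and 12.4% of all 32851 windows held it. The 4 stretches are shown 5′ to 3′ on the gene's strand with the match in capitals, since these are the members in which the element was found close to the start.

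Nfe2l2, 240 bases upstream (minus strand, chr2:75704885-75704913): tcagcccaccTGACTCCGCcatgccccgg

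Gclm, 134 bases upstream (plus strand, chr3:122245413-122245441): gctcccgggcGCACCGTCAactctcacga

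Txnrd1, 92 bases upstream of 1 of its 3 starts (plus strand, chr10:82859104-82859132): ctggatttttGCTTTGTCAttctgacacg

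Srxn1, from base 29 after the start (plus strand, chr2:152105542-152105570): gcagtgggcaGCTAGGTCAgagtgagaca

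Of these 4 genes Srxn1 alone had separate groups, and none reached an unadjusted p under 0.05. Hmox1, Gclc and Gsr did reach it but had no window to search, so matches cannot be weighed against differences here. Srxn1 also held 2 matches to the AP-1 site TGACTCA, at 102 and 45 bases upstream, a site found in 5.95% of all genes. Both lay apart from the TGACNNNGC match shown above. The match at 45 bases and the bases after it read TGAGTCAGC, with G where the searched core has C. That form was not searched for. The Maf site TGCTGA was found in 0 of the 7 members and in 21.7% of all genes. Slc7a11, the member with the smallest p, had no match to these 3 motifs in its window. Another motif, the amino acid response element TGATGCAA bound by ATF4, was added after seeing the data. It occurred on both strands of the Slc7a11 window, starting 66 and 47 bases upstream, and in 1.03% of all genes, and both matches are shown because no other member's window held one.

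Slc7a11 (minus strand, chr3:50443643-50443689): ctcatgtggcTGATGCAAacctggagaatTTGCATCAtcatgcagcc

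A match describes letters in a window and not a site in use, and a window without one says nothing of elements farther away.

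Nfe2l2 (probe set 10483809) differed little between the genotypes. Its intensity was 259.9, 300.1 and 283.8 on the wild-type arrays and 271.03, 298 and 312 on the Scnn1b-Tg arrays. The groups overlapped, with the lowest value on wild type replicate 1 and the highest on Scnn1b-Tg replicate 3. This gave a log2 fold change of 0.06 ± 0.07 (SE; 95% interval -0.11 to 0.24), adjusted p = 0.975 in limma. The RNA level does not report the protein, whose stability KEAP1 sets.

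The other 18 regulators and partners of NRF2 lay close to 0. Of these 10 were higher and 8 lower, 0 were called, 0 reached an unadjusted p under 0.05 and the median log2 fold change was 0.0092. Their values ran from -0.09 ± 0.06 (SE) for Nfe2l3, a relative of NRF2, to 0.11 ± 0.08 for Crebbp, a histone acetyltransferase and NRF2 coactivator. Crebbp was 0.01 without Scnn1b-Tg replicate 3. Keap1, chosen for its role after its values were seen, gave -0.03 ± 0.05 and Bach1, the repressor that competes with NRF2 at Hmox1, gave 0.01 ± 0.06, which was -0.01 after median centring and ran from -0.03 to 0.06 with single arrays left out. Palb2, best known as a BRCA2 partner and able to bind KEAP1, was the 1 gene of these 18 with separate groups, against 10.7% of all genes. Its log2 fold change was 0.07 ± 0.04 (95% interval -0.03 to 0.17, adjusted p = 0.897 in limma). Palb2 was dim, at 24.5 to 26.4 over the arrays, and was named after its values were seen.

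Among genes of glutathione synthesis, Slc7a11 and Gclc had separate groups and Gclm and Slc3a2 did not. Slc7a11 (probe set 10498024) encodes the light chain of the cystine importer, which brings in the amino acid that limits glutathione synthesis. Its intensity was 28.8, 26.1 and 26.8 in wild type and 34.1, 33.6 and 33.2 in Scnn1b-Tg, so that the groups were separate with a narrow spread in each. The log2 fold change of 0.30 ± 0.05 (SE; 95% interval 0.18 to 0.42) had the 53rd smallest p of all genes, with an adjusted p of 0.205 in limma. The probe set was among the dimmest 6645 genes, close to the lowest value of the arrays. With 16 subtracted from every intensity its log2 fold change was 0.65 (adjusted p = 0.0523), and over all 15 alternatives that gave a value the adjusted p ran from that value to 0.634. Its partner chain Slc3a2, named for this role, gave -0.01 ± 0.13 with overlapping groups.

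Gclc and Gclm encode the catalytic and the modifier subunit of glutamate-cysteine ligase, the rate-limiting enzyme of glutathione synthesis. Gclc (probe set 10587266) measured 236.1, 265.1 and 243.7 in wild type and 281.4, 342 and 322 in Scnn1b-Tg. Its groups were separate, the lowest transgenic array being replicate 1. The difference was 0.34 ± 0.08 on the log2 scale (SE; 95% interval 0.15 to 0.54), adjusted p = 0.459 in limma. Gclm (probe set 10495763) measured 127.6, 124.1 and 140.6 in wild type and 122.4, 132.02 and 130.5 in Scnn1b-Tg. These groups overlapped, and the log2 fold change was -0.03 ± 0.06 (95% interval -0.17 to 0.12, adjusted p = 0.995). Without wild type replicate 3 it was 0.03 and without Scnn1b-Tg replicate 1 it was 0.0075.

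The log2 ratio of Gclc to Gclm within an array was higher by 0.37 in Scnn1b-Tg, at 0.09, 0.27 and 0.19 against -0.22, -0.01 and -0.32 in wild type, and the groups were separate. An exact two-sided permutation test gave p = 0.1, the smallest that 3 against 3 arrays allow. For Slc7a11 against Slc3a2 the ratio was higher by 0.31 with overlapping groups and an exact p of 0.2. Adjusted over these 2 ratios both p-values were 0.2 (exact permutation, Benjamini-Hochberg). No outcome with 3 arrays a group could have reached 0.05, and the pairs were chosen with their values known, so the ratios are a description.

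Gsr and Gpx2 use and recycle glutathione. Gsr (probe set 10571274), glutathione reductase, returns oxidised glutathione to its reduced form with NADPH. It measured 131.4, 120.9 and 128.5 in wild type and 155.3, 142.06 and 154.6 in Scnn1b-Tg, with separate groups. On the log2 scale Gsr was higher by 0.25 ± 0.06 (SE; 95% interval 0.11 to 0.38), adjusted p = 0.416 in limma. Gpx2 (probe set 10401109), an epithelial glutathione peroxidase that removes hydroperoxides, measured 50.6, 62.2 and 45.5 in wild type and 53.1, 62.2 and 58.9 in Scnn1b-Tg. Wild type replicate 2 was as high as the highest transgenic array, so the groups overlapped. Its log2 fold change of 0.15 ± 0.12 (95% interval -0.13 to 0.43, adjusted p = 0.932) became 0.27 when wild type replicate 2 was left out. Leaving out the third wild-type array instead gave 0.05.

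In the wider list of glutathione synthesis and use, 7 of 18 measured genes were higher and 11 lower, with 0 called and a median of -0.02. Wholly above wild type lay 2 of these genes and wholly below lay 1, against 6.26% and 4.41% of all genes. Those at an unadjusted p under 0.05 were the 2 that lay above. They were Gpx1, the main cytosolic glutathione peroxidase (0.27 ± 0.07, SE), and Glrx, the glutaredoxin that removes glutathione from proteins (0.26 ± 0.07), each with an adjusted p of 0.575 in limma.

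The thioredoxin arm gave small differences. Txnrd1 (probe set 10365260), the cytosolic thioredoxin reductase, measured 139.6, 134.1 and 118.03 in wild type and 137.5, 136.5 and 143.03 in Scnn1b-Tg. The groups overlapped and the lowest array was wild type replicate 3. Txnrd1 gave a log2 fold change of 0.09 ± 0.07 (SE; 95% interval -0.07 to 0.26, adjusted p = 0.929), or 0.02 without that array. Srxn1 (probe set 10477061), the sulfiredoxin that repairs overoxidised peroxiredoxins, measured 58.3, 54.6 and 59.6 in wild type and 60.1, 60.5 and 62.3 in Scnn1b-Tg. The groups did not overlap, but the lowest transgenic array and wild type replicate 3 were less than 1 intensity unit apart. Its log2 fold change was 0.08 ± 0.05 (95% interval -0.03 to 0.20) with an adjusted p of 0.897.

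Of 12 other thioredoxin and peroxiredoxin genes 6 were higher and 6 lower, 0 were called and the median was 0.0022. The largest values were 0.16 ± 0.11 (SE) for Txn2, the mitochondrial thioredoxin, which was 0.02 without Scnn1b-Tg replicate 3, and 0.14 ± 0.07 for Txn1, its cytosolic counterpart. Sesn1, a stress-induced sestrin, was the single gene of this list at an unadjusted p under 0.05 and was lower (-0.11 ± 0.04, adjusted p = 0.787 in limma).

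Hmox1 and Nqo1 are the usual indicator genes of NRF2 activity, and the difference between them was not tested. Hmox1 (probe set 10572897) encodes haem oxygenase 1, which opens haem to biliverdin, carbon monoxide and iron and is also induced by haem itself through loss of BACH1. Its intensity was 98.6, 83.4 and 99.3 in wild type and 136 (135.98), 115.01 and 126.1 in Scnn1b-Tg. The groups were separate, with wild type replicate 2 lowest and Scnn1b-Tg replicate 1 highest. The log2 fold change of 0.42 ± 0.09 (SE; 95% interval 0.21 to 0.64) was exceeded by 0.542% of all genes, and the adjusted p was 0.360 in limma. Nqo1 (probe set 10581538), a quinone reductase, measured 32.6, 33.03 and 31.2 in wild type and 31.1, 31.8 and 33.5 in Scnn1b-Tg. All 6 arrays lay within a narrow band near the low end of the scale, and the groups overlapped. Its log2 fold change was -0.0063 ± 0.05 (95% interval -0.12 to 0.11, adjusted p = 0.995), and with single arrays left out it ran from -0.04 to 0.02, being above 0 without replicate 1 or 2 of either genotype.

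Haem and iron genes around Hmox1 gave 11 of 19 higher and 8 lower, with 0 called and a median of 0.01. At an unadjusted p under 0.05 were 4 higher and 0 lower. Lcn2, the siderophore-binding lipocalin 2 of neutrophils and epithelium, had the largest value (0.65 ± 0.18, SE) and Trf, transferrin, gave 0.32 ± 0.05 (adjusted p = 0.206 in limma). The other members at this level were Ftl1, the ferritin light chain and an NRF2 target (0.17 ± 0.05), and Lrp1, a receptor for haemopexin (0.23 ± 0.10). All 4 had separate groups. So did 7 of the 19 in all, with 6 wholly above wild type and 1 wholly below, against 10.7% of all genes.

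NADPH drives both glutathione reductase and thioredoxin reductase. Of 8 measured NADPH supply genes 7 were higher and 1 lower, and the median log2 fold change was 0.10. Separate groups were seen for 3 of them, against 10.7% of all genes. Me1, malic enzyme 1 and an NRF2 target, had 2 probe sets, and values are given for the brighter alone. It measured 229.7, 203.8 and 211.7 in wild type and 281.7, 298 and 294 in Scnn1b-Tg. Its groups lay far apart for their spread. Its log2 fold change of 0.44 ± 0.06 (SE) gave an adjusted p of 0.129 in limma, which passed once the dimmest 6645 genes were dropped (0.0398) or under an intensity trend and robust variance (0.0476). Over all alternatives the adjusted p of Me1 ran from 0.0398 to 0.506. The pentose phosphate enzymes Pgls (0.19 ± 0.04) and Tkt (0.18 ± 0.06) were the others at an unadjusted p under 0.05, with adjusted p-values of 0.378 and 0.722.

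Detoxification enzymes and transporters known as NRF2 targets had a median near that of all genes, which was 0.0052. Of 26 measured 11 were higher and 15 lower, 0 were called, and the median was -0.02. At an unadjusted p under 0.05 were 0 higher and 2 lower genes, the glutathione transferases Gsta3 (-0.65 ± 0.20, SE) and Gstm1 (-0.16 ± 0.07). Of all genes 3.96% were higher and 2.05% lower at that level. Gsta3 measured 135.3, 246.9 and 169 (168.98) in wild type and 113.9, 106.7 and 120.5 in Scnn1b-Tg, and was -0.41 without wild type replicate 2, where it was highest. Ephx1, the microsomal epoxide hydrolase, gave -0.27 ± 0.14 with overlapping groups, and -0.11 without wild type replicate 2. Gsta3 is also a club cell marker, and club cell markers were lower in Scnn1b-Tg, as given below.

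Among genes that make or remove superoxide and hydrogen peroxide 9 of 15 were higher and 6 lower, with 0 called and a median of 0.04, which turned to -0.0020 after quantile normalization. The 3 at an unadjusted p under 0.05 were all subunits of the phagocyte NADPH oxidase and had separate groups. Ncf1 (p47phox) measured 88.9, 77.3 and 88.4 in wild type and 167.2, 135.6 and 109.8 in Scnn1b-Tg, or 0.68 ± 0.15 higher on the log2 scale (SE, adjusted p = 0.376 in limma). Cyba (p22phox) gave 0.33 ± 0.09 and Ncf4 (p40phox) 0.26 ± 0.10, while the catalytic subunit Cybb gave 0.23 ± 0.11 with overlapping groups. Neutrophils, macrophages and eosinophils use this oxidase, but which lung cells carried these RNAs was not tested.

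Genes under ATF4, the stress factor that also acts on Slc7a11, gave 5 of 13 higher and 8 lower, with 0 called and a median of -0.0077. At an unadjusted p under 0.05 were Atf3, a stress-induced repressor (0.26 ± 0.10, SE, groups overlapping), and Ddit3, which encodes CHOP and was lower (-0.16 ± 0.06). Both had an adjusted p of 0.764 in limma. Slc7a5, a neutral amino acid transporter, gave 0.23 ± 0.11, and Atf4 itself 0.06 ± 0.07, which was -0.0082 without Scnn1b-Tg replicate 3.

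**Figure D3:**
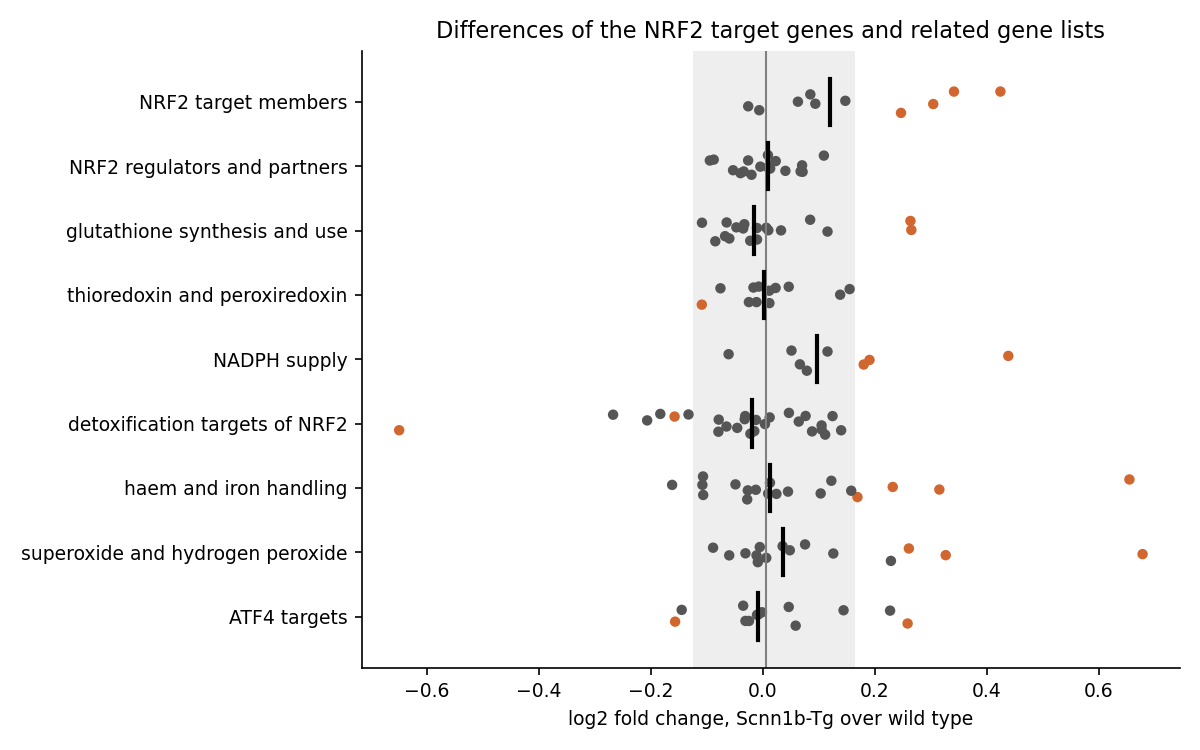
Log2 fold change of Scnn1b-Tg over wild type for every measured gene of the 10 NRF2 members and of 8 related gene lists, with the list median as a black bar, genes at an unadjusted p under 0.05 in orange, the median of all 19935 genes as a grey line and the middle 90% of all genes shaded, from -0.12 to 0.16. The medians of the members (0.12) and of NADPH supply (0.10) were the highest of these lists.

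The array values of Slc7a11 were most like those of Fyb, an adaptor protein of T cells and myeloid cells, Aldoa, a glycolytic aldolase, H2-DMa, which loads peptides on MHC class II, Camk1d, a calmodulin-dependent kinase, and Syk, a kinase of immune receptors. Likeness was the root mean square difference of log2 values centred over the 6 arrays, which was 0.02 for Fyb and Aldoa, 0.03 for H2-DMa, 0.04 for Camk1d and 0.05 for Syk. Log2 fold changes of the 5 genes ran from 0.28 to 0.35, and their groups were separate. Both follow from choosing genes with values so like those of Slc7a11. With 6 arrays and 19935 genes such neighbours are a description only.

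Averaged over the 10 members, the deviation from the mean of the 6 arrays ran from -0.10 to -0.08 for wild type and from 0.05 to 0.12 for Scnn1b-Tg, where replicate 1 had the lowest value. Hmox1 and Gsr were highest on Scnn1b-Tg replicate 1 and Gclc on replicate 2, so the members did not share 1 order among the transgenic arrays.

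Several markers of macrophages, eosinophils and club cells also lay apart by genotype on these arrays. Lung tissue is a mixture of cell types, and fewer cells of a type and less RNA per cell cannot be told apart. For scale, 53.2% of all genes were higher, 6.26% lay wholly above wild type and 4.41% wholly below. Of 11 macrophage markers 10 were higher and 7 lay wholly above wild type, with a median log2 fold change of 0.33. Their mean deviation was -0.18 to -0.14 on the wild-type arrays and 0.12 to 0.20 on the transgenic arrays. Their summed intensity overlapped, at 4156 to 5055 and 4214 to 4786, since most of it came from Lyz2 (-0.12 ± 0.11, SE). The next brightest, Mertk, gave 0.04 ± 0.07. Marco (0.01 ± 0.12) and Msr1 (0.14 ± 0.08), named after their values were seen, also had overlapping groups. The largest difference was that of Itgam, picked after its value was seen (0.91 ± 0.15). Itgam was called with 16 subtracted, without the dimmest 6645 genes and with an intensity trend (adjusted p from 0.0225 to 0.0380 in limma). Adgre1 and Siglecf of this list fell in order from Scnn1b-Tg replicate 1 to 3, as did Ccr3 of the eosinophil list. The other macrophage markers wholly above wild type, Cd68, Csf1r, Itgax, Mrc1 and Itgam, did not follow that order. Cd68 measured 198.2, 196.9 and 200.3 on these arrays. These macrophage markers were named after their values were seen. Which cells carry these RNAs was not tested. Of 5 eosinophil markers 3 lay wholly above wild type, with Ccr3 at 1.40 ± 0.32 and Prg2 at 0.41 ± 0.17 and a summed intensity of 169.6 to 177.7 against 216.6 to 377. Of 9 club cell markers 8 were lower and 4 lay wholly below, with a median of -0.29 and a summed intensity of 8913 to 11323 against 8102 to 8678. The brightest were Scgb1a1 (-0.31 ± 0.07) and Cyp2f2 (-0.48 ± 0.08), and the lowest log2 fold changes were those of Pon1 (-0.68 ± 0.22), picked after its value was seen, and Gsta3. Of 8 neutrophil markers 5 were higher and 3 lower, with a median of 0.03, and Retnlg alone lay wholly above wild type (1.38 ± 0.35), while the next brightest, S100a8, gave -0.08 ± 0.12 with overlapping groups. Their summed intensity was 368 to 492 in wild type against 559.96 to 839.95, but 274 to 303 against 278 to 315 without Retnlg, where the groups overlapped. Goblet cell markers had 6 of 7 higher, with 1 wholly above. Of 3 measured red cell precursor markers, a source of haem, 1 was higher and 2 lower, with Alas2 wholly below wild type (-0.46 ± 0.16) and Slc4a1 overlapping (-0.11 ± 0.18). Ciliated, alveolar type 1, alveolar type 2, endothelial, fibroblast and lymphocyte markers had 0 genes with separate groups, and 3 of 6 cardiac muscle markers lay wholly below wild type. No marker can be at 0 on this scale, whose lowest value was 18.3. The part of cell composition in the values of the NRF2 genes was not tested.

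**Figure D4:**
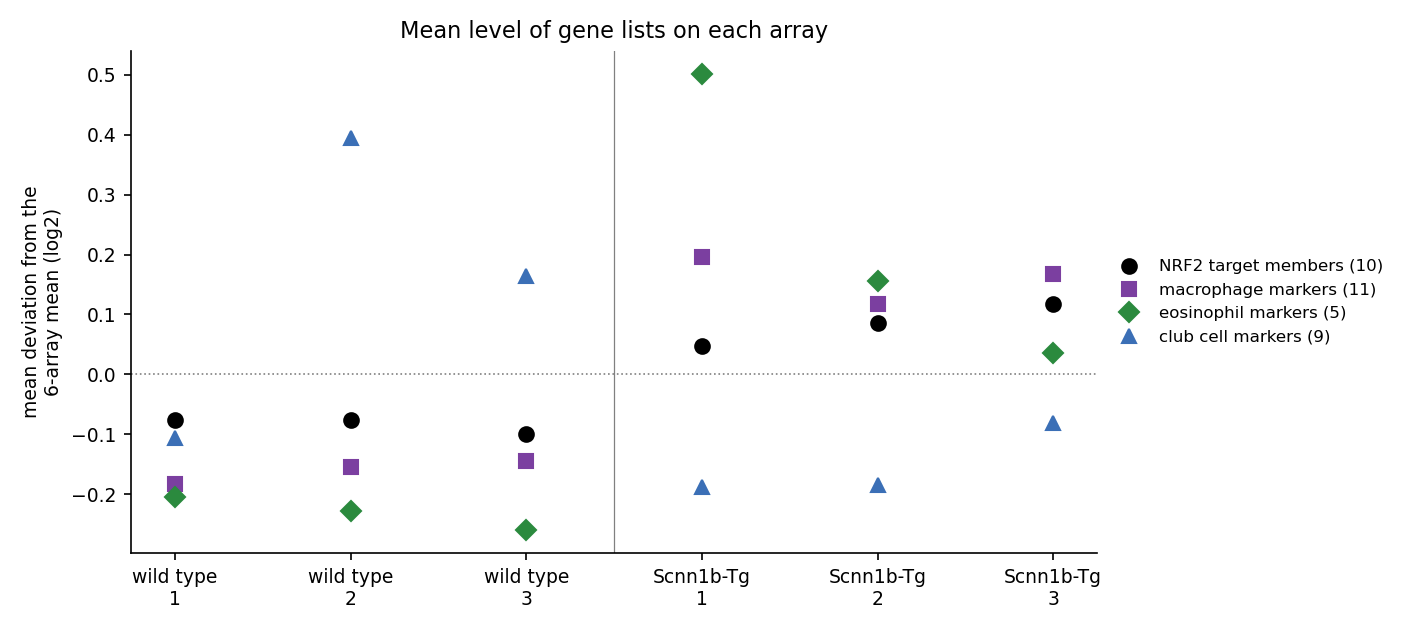
Mean deviation, in log2 units, from the 6-array mean on each array for the 10 NRF2 genes and for the measured markers of macrophages (11), eosinophils (5) and club cells (9). NRF2 genes, macrophage markers and eosinophil markers all lay below 0 on the 3 wild-type arrays and above 0 on the 3 transgenic arrays. Club cell markers lay above 0 on wild type replicates 2 and 3 only.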

How the data were processed

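Lung RNA was labelled for whole-transcript Affymetrix arrays, per the labels' protocols. RMA is the tool named for the deposited intensity values in the submitters' processing notes. They are on a linear scale, as read from the values, with 1 column per sample. The sources used here do not say whether a constant was added. A constant would shrink log2 differences of dim genes such as Slc7a11 and Nqo1.

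Of 28815 probe sets, 21780 had exactly 1 symbol in the platform annotation, and the brightest per gene was kept. The main test was limma 3.58.1 under R 4.3.3 on log2 intensity (lmFit, eBayes, genotype as the only term), two-sided, with Benjamini-Hochberg adjustment over 19935 genes and a call at an adjusted p under 0.05. Errors are SE of this fit or SD of 3 arrays, so precision is limited by the number of arrays. The 95% intervals use 6.99 degrees of freedom. The fit code was run on simulated data with independent noise, a check of the code and not of power at the size of the members' differences. Promoter windows came from RefSeq (GRCm38.p6), and all 10 symbols matched its gene table.

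The members and the 8 gene lists (127 of 137 genes measured) and 13 marker lists (86 of 93 entries) were chosen with earlier results of these data known. Named were all members, Scnn1b, the 2 largest differences of each list, the 5 genes most like the member with the smallest p, and the 2 brightest markers of a list where markers are given by name. Other names were chosen after their values were seen. Alternatives were quantile normalization, median centring, 16 subtracted, the dimmest 6645 genes left out, mean or separate probe sets, array weights, a trend of variance with intensity (robust), a replicate block and each array left out. Leaving out both arrays that stood apart was added after seeing the data.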

Additional observations from a re-analysis of the deposited data

How the results depend on the processing

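Over 16 alternatives 0 of the 10 NRF2 genes were called, between 3 and 5 were at an unadjusted p under 0.05, and between 5 and 6 had separate groups when arrays were left out. Groups of fewer arrays separate more readily, and the shares of all genes in these settings are not given here. Leaving out the dimmest 6645 genes removed Slc7a11, Nqo1 and Palb2, which then have no value. Of 158 member estimates under an alternative 152 kept their direction, and the 6 that did not were of Nqo1 and Gclm with 1 array left out. Leaving out 1 array, or both that stood apart, gave from -0.037 to 0.016 for Nqo1 and from -0.075 to 0.027 for Gclm. The median over the members, 0.12, was 0.17 with 16 subtracted, 0.16 with array weights, and between 0.091 and 0.16 with arrays left out. All genes called numbered 1, but 23 with 16 subtracted, 39 without those dimmest genes, 36 with an intensity trend, 6 without both arrays that stood apart, and 0 to 5 with 1 array left out.

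The replicate block gave 3 called genes, with 0 of the members called. Deviations of same-numbered arrays had correlations of 0.026, 0.028 and 0.040, against -0.063 to 0.024 for arrays with unlike numbers. Correlations this small, from 3 arrays a group, cannot tell whether the numbers pair the samples. The block changed no call of a member.

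Among related lists, 1 NADPH supply gene, Me1 (0.44), was called without the dimmest genes and with an intensity trend. Median centring moved the regulator median to -0.016, and quantile normalization moved that of the superoxide list to -0.0020, which was 0.091 without both arrays. With 1 array left out, list medians were 0.094 to 0.14 for NADPH supply, -0.016 to 0.049 for haem and iron, and -0.00045 to 0.096 for superoxide. Single genes turned as follows. Bach1 was -0.012 with median centring. With 1 array or both left out, the values were -0.033 to 0.084 for Bach1, -0.11 to 0.089 for Slc3a2, -0.021 to 0.11 for Atf4, -0.20 to 0.059 for Lyz2 and -0.023 to 0.080 for Mertk. The cause of these moves was not tested. Scnn1b without wild type replicate 3 had an adjusted p of 0.0559 at 3.38 in limma. With 3 arrays a group, the 95% intervals of Nfe2l2, Nqo1, Gclm, Txnrd1, Srxn1 and Gpx2 included 0.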
